A study of Danio rerio with 16 samples.

Results

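The Bmp and nodal signalling genes described here are 48 genes on an Affymetrix zebrafish array, measured in whole embryos in which retinoic acid signalling had been raised or blocked. They were taken by name from the array's probe annotation. Every symbol starting with bmp, tgfb, smad, ndr, lft, gdf, acvr, chrd, nog, fst, szl, admp, tll1, bambi or tdgf was included, and the unrelated ndrg symbols were left out. The 48 genes are represented by 59 probe sets of 15502, and where a gene had several, the brightest on average was used. All embryos were wild type, from incrosses of AB/Wik hybrid parents, and were dechorionated and collected at 11 hours post fertilization (hpf), in early somitogenesis. The RA group received 0.33 µM all-trans retinoic acid (RA), the ligand of the retinoic acid receptors, from 6.5 hpf. The antagonist groups received AGN193109, a synthetic antagonist of those receptors, at 10 µM or 1 µM from 5.25 hpf, and the control group received the solvent DMSO at 2% from 5.25 hpf. The compounds were diluted from stocks in DMSO, and the solvent is recorded at 2% for all groups. Exposure therefore lasted 4.5 hours with RA and 5.75 hours in the other groups, so treatment and exposure time cannot be told apart in any comparison with RA. Each group held 4 independent samples, and n = 4 per group throughout.

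Bmp proteins are secreted ligands that bind type I and type II receptor kinases, which phosphorylate Smad1 and Smad5. In the zebrafish gastrula a gradient of Bmp activity, high ventrally, sets the dorsoventral axis, and chordin and noggin from the dorsal side bind the ligands and keep them from their receptors. Nodal proteins act through Activin receptors, the co-receptor Tdgf1 (one-eyed pinhead) and Smad2 and Smad3 to induce mesoderm and endoderm, and the Lefty proteins, which Nodal itself induces, limit their range.

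The arrays were alike in overall brightness, with medians of the deposited intensity between 72.8 and 78.3. Across probe sets, the mean correlation of an array with the others of its group was between 0.975 and 0.989. The RA arrays were not of a piece, however. Replicates 1 and 3 lay wholly above or wholly below replicates 2 and 4 on 61.3% of the tested probe sets, and for 26 of the 39 tested members. In the 1 µM antagonist group, replicates 1 and 4 parted in the same way from replicates 2 and 3 on 51.6% of the tested probe sets and for 17 members. These pairs were noticed after the values were seen, and the results of members are given below with and without each pair of RA arrays where that changes a call. A probe set was tested where it exceeded a log2 intensity of 4 (an intensity of 16) on at least 4 arrays, which 39 of the 48 genes did. Since the whole embryo was sampled, fewer cells of a type and less RNA per cell cannot be told apart in any result below.

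**Figure D1:**
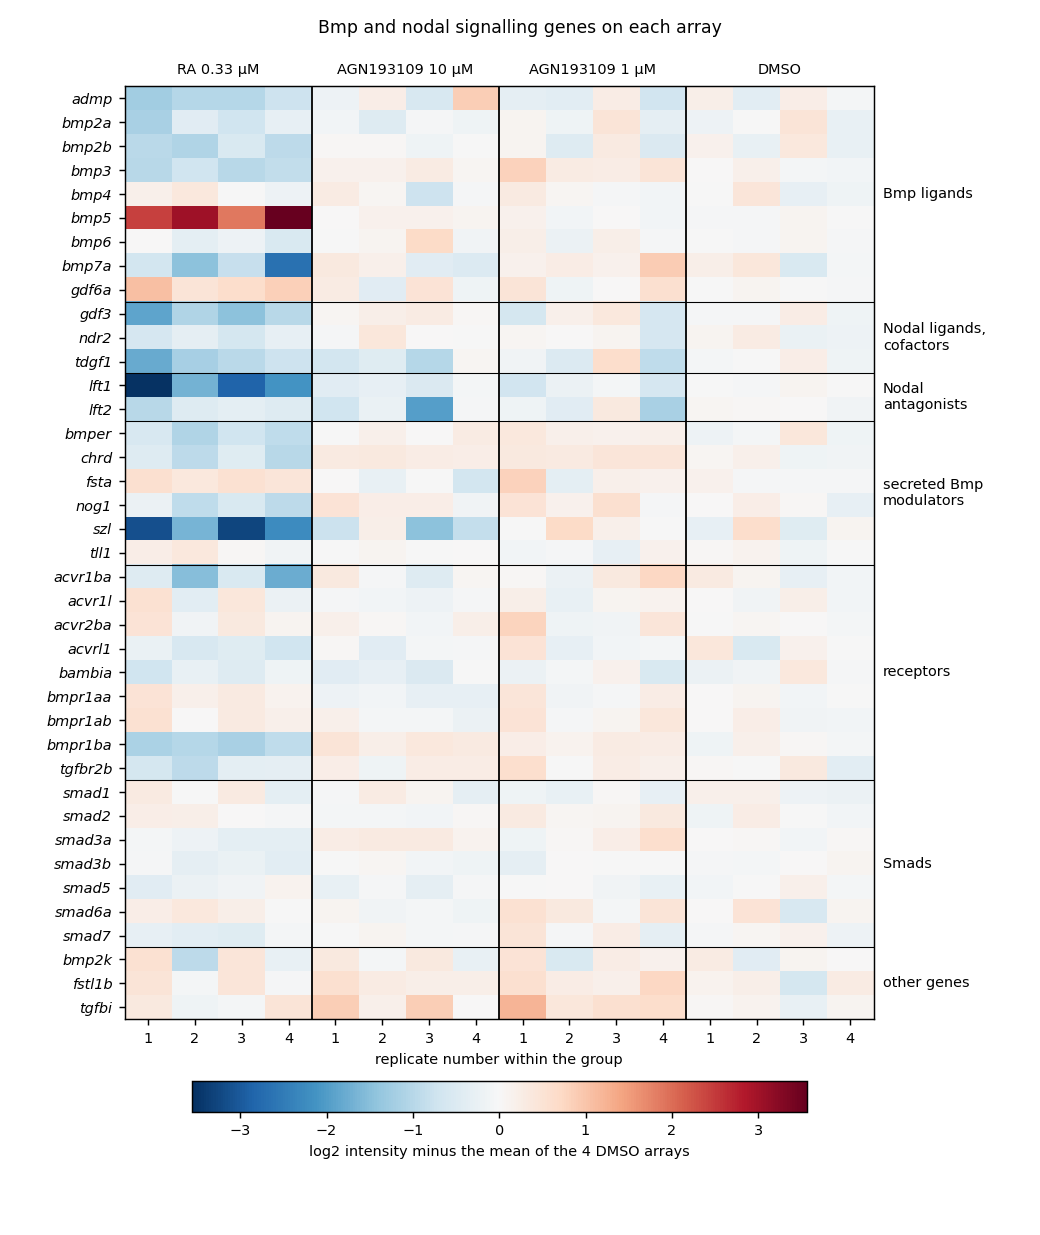
Log2 intensity minus the mean of the 4 DMSO arrays for the 39 tested members (rows, grouped by role) on the 16 arrays (columns, by group and replicate number); blue is lower and red is higher than DMSO. The RA columns hold most of the strong colour, with bmp5 above DMSO and lft1 and szl below it, and the antagonist columns are mostly pale, lft2 and szl on replicate 3 of the 10 µM group being the darkest of their cells.

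RA changed a larger share of these genes than of all tested probe sets. Each member counts by its brightest probe set, whereas the background counts every tested probe set. Between RA and DMSO, 14 of the 39 tested members were called at an adjusted p under 0.05 (limma, Benjamini-Hochberg over all tested probe sets), which is 35.9%, whereas 5.75% of all tested probe sets were called. One of the 14, bmp5, passed the filter through its RA arrays alone and had to differ. With such probe sets left out, 13 of 38 members (34.2%) and 5.58% of all probe sets were called. The ligand genes bmp5 and gdf6a rose. The 12 members that fell were the ligand genes bmp2b, bmp7a, bmp3 and admp, the Nodal partner gdf3, the co-receptor gene tdgf1, the Nodal antagonist lft1, the secreted modulators szl, chrd and bmper, and the receptor genes acvr1ba and bmpr1ba. Across the array 3.18% of probe sets were called higher and 2.57% lower. The median difference over the 39 members was -0.29 on the log2 scale, against 0.01 over all tested probe sets, and the median size of the difference was 0.47 against 0.14. RA and DMSO arrays did not overlap for 19 members, where 10.1% of all tested probe sets showed such a separation. RA was the higher group for 4 of them (background 5.44%) and the lower group for 15 (background 4.64%). An unadjusted p under 0.05 was found for 23 members, against 13.2% of all tested probe sets. The 19, the 4 and the 23 include bmp5, whose separation was fixed by the filter, and these backgrounds keep probe sets like it. Of the 14 calls, 9 held without any 1 array, that of bmp5 among them, and the exceptions are named with their genes. With RA replicates 1 and 3 left out 12 members were called, nog1 among them, and with RA replicates 2 and 4 left out 10 were, bmp2a among them. Below, the values of an array are log2 intensities in the order of replicates 1 to 4, a difference is RA minus the other group's mean on the log2 scale with its standard error (SE), and levels are compared within a probe set only.

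Among the Bmp ligands, 2 of 9 tested genes rose and 4 fell. The 2 include bmp5, whose rise was fixed by the filter. For this and the other roles below, the background was 3.18% called higher and 2.57% called lower. For bmp2b (swirl), a principal ventralising ligand, the 4 RA arrays read 7.36, 7.25, 7.77 and 7.38. The gene measured 8.34, 8.36, 8.16 and 8.29 with 10 µM antagonist, 8.40, 7.84, 8.64 and 7.78 with 1 µM antagonist, and 8.47, 8.06, 8.68 and 8.04 with DMSO. Every RA array lay below every other array, and bmp2b fell by 0.87 ± 0.19 on the log2 scale (adjusted p = 0.00847). Its call ended with RA replicates 2 and 4 left out (difference -0.75, adjusted p = 0.0921). The partner of Bmp2b in the active ligand dimer is encoded by bmp7a (snailhouse), at 6.92, 6.12, 6.75 and 4.92 with RA. It stood at 7.92, 7.75, 7.18 and 7.08 with 10 µM antagonist, at 7.71, 7.83, 7.72 and 8.46 with 1 µM antagonist, and at 7.77, 7.96, 7.03 and 7.51 with DMSO. RA replicate 4 was the lowest of all arrays, and replicates 1 and 3 lay just under the lowest DMSO array. The fall of bmp7a by 1.39 ± 0.35 (adjusted p = 0.0232) lost its call without RA replicate 2 or 4 or DMSO replicate 1, 2 or 4, with adjusted p up to 0.0796. The call of bmp7a also ended with only the RA and DMSO arrays fitted. The difference was -2.05 without RA replicates 1 and 3 and -0.73 without replicates 2 and 4 (adjusted p = 0.159).

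Another ligand gene of the ventral program, bmp4, was at 6.17, 6.35, 5.96 and 5.80 with RA, 6.27, 6.05, 5.24 and 5.94 with 10 µM antagonist, 6.30, 6.03, 5.94 and 5.87 with 1 µM antagonist, and 5.97, 6.42, 5.68 and 5.84 with DMSO. All groups overlapped, and the difference between RA and DMSO was 0.09 ± 0.21 with a 95% interval of -0.34 to 0.53 (adjusted p = 0.918). The gene bmp3, whose human product is known as an inhibitor of Bmp signalling, read 8.41, 8.69, 8.41 and 8.50 with RA. It read 9.54, 9.54, 9.68 and 9.47 with 10 µM antagonist, 10.22, 9.69, 9.66 and 9.86 with 1 µM antagonist, and 9.40, 9.56, 9.32 and 9.29 with DMSO. RA arrays were the lowest group by a clear gap, and bmp3 fell by 0.89 ± 0.13 (adjusted p = 0.000137). The gene admp encodes a Bmp-like ligand made on the dorsal side, and its RA arrays read 5.89, 6.10, 6.10 and 6.38. Levels of admp were 6.93, 7.35, 6.55 and 7.99 with 10 µM antagonist, 6.80, 6.73, 7.39 and 6.45 with 1 µM antagonist, and 7.33, 6.74, 7.34 and 7.05 with DMSO. No RA array reached any other array, and admp fell by 1.00 ± 0.26 (adjusted p = 0.0261). That call ended without RA replicate 1, 2 or 3 or DMSO replicate 1, 3 or 4, with adjusted p up to 0.0932, and without either pair of RA arrays (differences -0.88 and -1.12).

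The ligand gene bmp5 gave a clear signal with RA and lay at the level of dim probe sets in the other groups. It measured 5.59, 6.19, 5.05 and 6.73 with RA, against 3.18, 3.33, 3.33 and 3.26 with 10 µM antagonist, 3.32, 3.07, 3.17 and 3.07 with 1 µM antagonist, and 3.12, 3.13, 3.26 and 3.16 with DMSO. The 12 arrays without RA all lay below the filter level of 4, so bmp5 was tested through its RA arrays alone and its call is no test. Against that level it was at least 3.71-fold higher with RA than with DMSO. The gene gdf6a (radar), a Bmp ligand gene expressed in the dorsal eye and ectoderm, was at 7.70, 7.10, 7.27 and 7.47 with RA. It was at 6.93, 6.22, 7.11 and 6.49 with 10 µM antagonist, 7.10, 6.49, 6.63 and 7.21 with 1 µM antagonist, and 6.61, 6.73, 6.61 and 6.58 with DMSO. RA arrays lay above all DMSO arrays but overlapped the antagonist arrays, and gdf6a rose by 0.75 ± 0.20 over DMSO (adjusted p = 0.0306). This was the least stable of the calls: it ended without RA replicate 1, 3 or 4, without any of the 4 DMSO arrays (adjusted p up to 0.123), and without either pair of RA arrays (differences 0.65 and 0.85). The remaining ligands did not pass the test. The difference was -0.64 for bmp2a (adjusted p = 0.0989), and -0.93 and called without RA replicates 2 and 4 (adjusted p = 0.0250). It was -0.26 for bmp6 (adjusted p = 0.590).

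On the Nodal side, gdf3 and tdgf1 fell among the 3 tested genes for ligands and cofactors, and ndr2 was not called. The product of gdf3 (Vg1) pairs with Nodal proteins to form the active ligand. The gene measured 5.99, 6.79, 6.40 and 6.86 with RA, 7.92, 8.06, 8.16 and 7.90 with 10 µM antagonist, 7.22, 8.03, 8.22 and 7.27 with 1 µM antagonist, and 7.80, 7.81, 8.11 and 7.69 with DMSO. All RA arrays lay below all others, and gdf3 fell by 1.35 ± 0.22 (adjusted p = 0.000611), with a call in every setting tried. For tdgf1 the RA arrays read 7.04, 7.67, 7.88 and 8.10, against 8.19, 8.42, 7.84 and 8.91 with 10 µM antagonist, 8.72, 8.35, 9.47 and 7.94 with 1 µM antagonist, and 8.77, 8.84, 9.08 and 8.70 with DMSO. RA arrays stayed below the DMSO arrays but overlapped both antagonist groups. The fall of tdgf1 by 1.17 ± 0.29 against DMSO (adjusted p = 0.0204) lost its call without RA replicate 1 or DMSO replicate 3, with adjusted p up to 0.0912. Without RA replicates 1 and 3 the difference was -0.96 (adjusted p = 0.201). The Nodal ligand gene ndr2 (cyclops) was near the filter level in all groups, at 4.00, 4.30, 3.99 and 4.32 with RA, 4.56, 5.02, 4.62 and 4.58 with 10 µM antagonist, 4.67, 4.63, 4.70 and 4.01 with 1 µM antagonist, and 4.72, 4.90, 4.38 and 4.42 with DMSO. RA arrays did not overlap DMSO arrays, but the difference of -0.46 ± 0.17 missed the threshold (adjusted p = 0.184). Against 10 µM antagonist it was -0.55 (adjusted p = 0.0607), which passed with the replicate number as a block (adjusted p = 0.0341). The other Nodal ligand gene, ndr1 (squint), exceeded 4 on no array, and its highest value was 3.16.

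Of the feedback antagonists lft1 and lft2, both induced by Nodal signals, lft1 was called between RA and DMSO and lft2 was not. For lft1 the RA arrays read 5.77, 7.62, 6.46 and 7.18. With 10 µM antagonist lft1 was at 8.91, 9.02, 8.78 and 9.24, with 1 µM antagonist at 8.62, 9.09, 9.24 and 8.70, and with DMSO at 9.28, 9.26, 9.39 and 9.28. The RA arrays were far below all others and spread widely (SD 0.81), whereas the DMSO arrays lay within a narrow band (SD 0.06). The fall of 2.54 ± 0.28, or 5.83-fold, was the second largest among the members (adjusted p = 6.44e-06). It was -1.90 without RA replicates 1 and 3 and -3.19 without replicates 2 and 4, and it was called in both. For lft2 the arrays read 6.62, 7.16, 7.27 and 7.17 with RA, 6.92, 7.39, 5.65 and 7.57 with 10 µM antagonist, 7.48, 7.20, 7.96 and 6.47 with 1 µM antagonist, and 7.70, 7.66, 7.63 and 7.49 with DMSO. The RA arrays lay just below the DMSO arrays, and the antagonist arrays spread over both. The difference of -0.56 ± 0.34 between RA and DMSO was not called (adjusted p = 0.578), and whether lft1 and lft2 differed in their response was not tested.

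**Figure D2:**
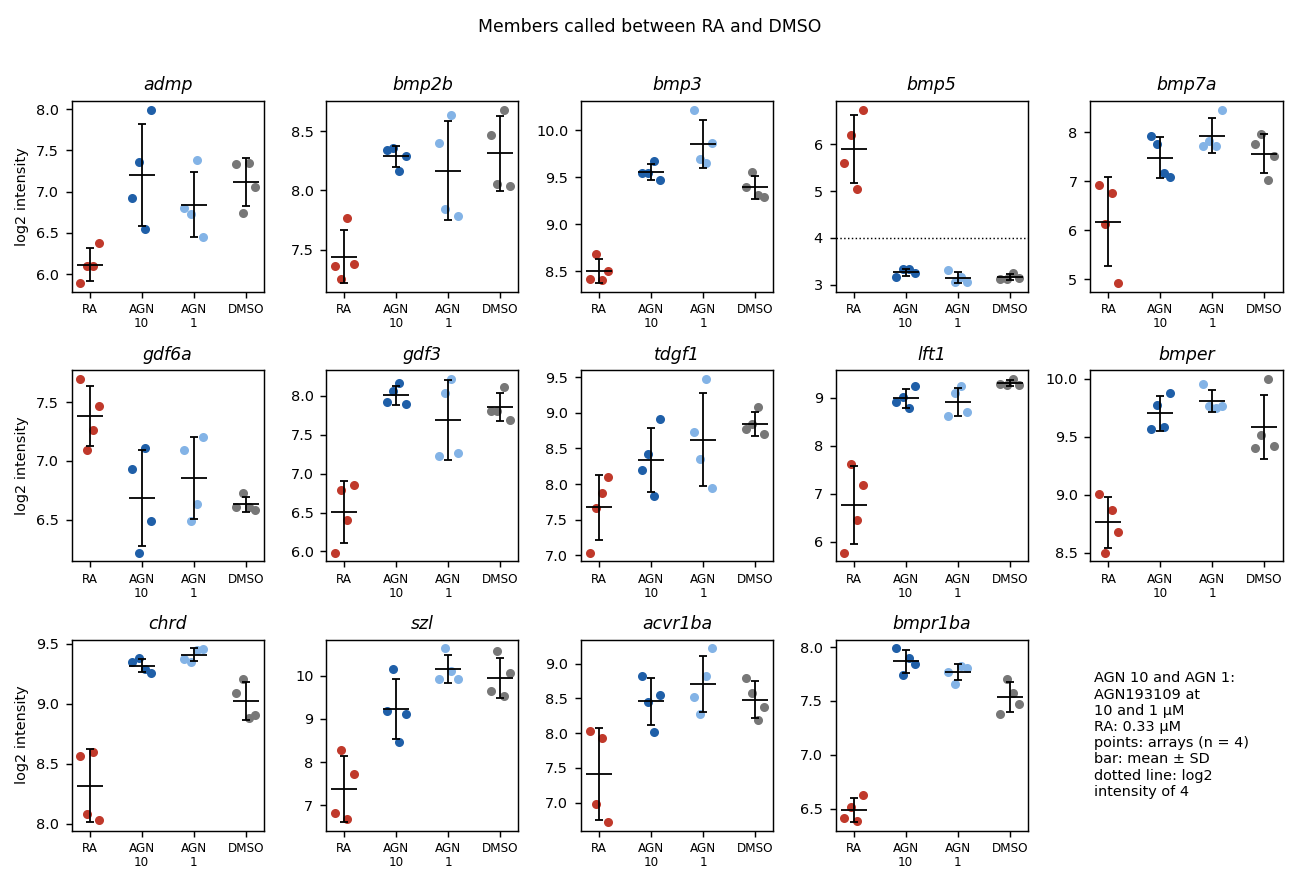
Log2 intensity of the 14 members called between RA and DMSO, by group, with 1 point per array and the mean ± SD (n = 4). RA points sit apart from the DMSO points in all 14 panels, above them for bmp5 and gdf6a and below them elsewhere; the dotted line in the bmp5 panel is the filter level of 4, and each panel has its own axis.

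Among the secreted proteins that act on Bmp ligands, szl, chrd and bmper fell and no gene rose. The gene szl (sizzled) encodes a Frizzled-related protein of the ventral side that inhibits the proteases that cut chordin. It read 6.81, 8.28, 6.68 and 7.72 with RA, 9.19, 10.15, 8.47 and 9.11 with 10 µM antagonist, 9.94, 10.63, 10.12 and 9.93 with 1 µM antagonist, and 9.65, 10.57, 9.52 and 10.05 with DMSO. All RA arrays lay below all others, and the fall of 2.58 ± 0.37, or 5.96-fold, was the largest among the members (adjusted p = 0.000118). Without RA replicates 1 and 3 it was -1.95, and without replicates 2 and 4 it was -3.20, called in both. For chrd (chordino), the dorsal Bmp-binding protein itself, the RA arrays read 8.56, 8.08, 8.60 and 8.04. The level was 9.35, 9.38, 9.29 and 9.25 with 10 µM antagonist, 9.37, 9.35, 9.44 and 9.46 with 1 µM antagonist, and 9.09, 9.21, 8.88 and 8.91 with DMSO. RA arrays were lowest, and all DMSO arrays lay below the arrays of both antagonist doses. The highest DMSO array (9.21) was close to the lowest antagonist array (9.25), and neither antagonist dose was called against DMSO. Against DMSO, chrd fell by 0.70 ± 0.13 with RA (adjusted p = 0.00221), and the difference ranged from -0.96 without RA replicates 1 and 3 to -0.44 without replicates 2 and 4.

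The gene bmper (crossveinless 2), whose extracellular product binds Bmps, measured 9.01, 8.50, 8.86 and 8.68 with RA, 9.57, 9.78, 9.58 and 9.87 with 10 µM antagonist, 9.95, 9.76, 9.74 and 9.77 with 1 µM antagonist, and 9.40, 9.52, 10.00 and 9.42 with DMSO. RA arrays lay below all others, and bmper fell by 0.82 ± 0.15 (adjusted p = 0.00117). The noggin gene nog1, another dorsal Bmp antagonist, was at 6.63, 5.96, 6.30 and 5.91 with RA. It was at 7.35, 7.08, 7.10 and 6.73 with 10 µM antagonist, 7.34, 7.01, 7.42 and 6.80 with 1 µM antagonist, and 6.86, 7.09, 6.90 and 6.56 with DMSO. RA replicate 1 overlapped the lowest DMSO array, and the difference of -0.65 ± 0.19 narrowly missed the threshold (adjusted p = 0.0506). It passed with the replicate number as a block (adjusted p = 0.00513) and without RA replicates 1 and 3 (difference -0.92, adjusted p = 0.0146). In all, nog1 was called in 9 of 20 alternatives, a filter at log2 5 among them, and not in the other 11. With the block and only the RA and DMSO arrays fitted, nog1 was not called. For the follistatin gene fsta, whose product binds Activins and Bmps, values were 10.47, 10.27, 10.45 and 10.34 with RA, 9.94, 9.63, 9.89 and 9.26 with 10 µM antagonist, 10.74, 9.55, 10.08 and 10.05 with 1 µM antagonist, and 10.06, 9.86, 9.85 and 9.86 with DMSO. RA arrays were all above the DMSO arrays, but the difference of 0.47 ± 0.20 was not called (adjusted p = 0.270). With only the RA and DMSO arrays fitted, fsta was called (limma, adjusted p = 0.0379), and no other alternative gave it a call. The protease gene tll1 (tolloid-like 1) differed by 0.13 (adjusted p = 0.748).

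Of the 9 receptor genes, bmpr1ba and acvr1ba fell and 7 were not called. The type I Bmp receptor gene bmpr1ba read 6.42, 6.52, 6.38 and 6.63 with RA, 7.99, 7.74, 7.90 and 7.85 with 10 µM antagonist, 7.77, 7.66, 7.82 and 7.81 with 1 µM antagonist, and 7.38, 7.71, 7.58 and 7.47 with DMSO. It was the member with the tightest replicates (pooled SD 0.11), and its RA arrays, at most 6.63, lay below all others, at least 7.38. It fell by 1.05 ± 0.11, or 2.07-fold (adjusted p = 2.12e-06). The gene acvr1ba, which encodes a type I receptor for Activin and Nodal, read 8.03, 6.98, 7.94 and 6.72 with RA. Its levels were 8.83, 8.44, 8.01 and 8.55 with 10 µM antagonist, 8.52, 8.28, 8.82 and 9.22 with 1 µM antagonist, and 8.80, 8.57, 8.19 and 8.38 with DMSO. RA replicates 2 and 4 were more than 1 unit below the DMSO mean and replicates 1 and 3 were close under the lowest DMSO array. The fall of 1.07 ± 0.28 (adjusted p = 0.0293) lost its call without RA replicate 2 or 4 or DMSO replicate 1, 2 or 4, with adjusted p up to 0.111. The call of acvr1ba also ended with only the RA and DMSO arrays fitted. The difference was -1.63 without RA replicates 1 and 3, and -0.50 without replicates 2 and 4 (adjusted p = 0.256).

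The remaining receptor genes differed from DMSO by -0.56 to 0.28. The gene bambia, whose product is a receptor without a kinase that dampens the pathway, read 9.63, 10.07, 9.86 and 10.19 with RA, 9.93, 10.04, 9.81 and 10.33 with 10 µM antagonist, 10.12, 10.27, 10.48 and 9.80 with 1 µM antagonist, and 10.11, 10.21, 10.70 and 10.30 with DMSO. Its groups overlapped, with a difference of -0.39 ± 0.17 (adjusted p = 0.323). The type II receptor gene tgfbr2b had probe sets on both sides of the threshold: the brighter gave -0.56 ± 0.18 (adjusted p = 0.0905) and the dimmer -0.76 ± 0.16 (adjusted p = 0.00571). With the replicate number as a block the brighter probe set was called too (adjusted p = 0.0410), as was acvrl1, a type I receptor gene known from blood vessels (difference -0.49, adjusted p = 0.0307, and 0.237 without the block). Neither was called with the block and only the RA and DMSO arrays fitted. None of the other probe sets of members with several was called.

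None of the 7 Smad genes, which encode the intracellular transducers, was called between RA and DMSO. Of all tested probe sets 5.75% were called, so this count does not set the Smad genes apart. Their differences ran from -0.29 to 0.21. The gene of the Bmp transducer Smad5 read 10.46, 10.66, 10.75 and 11.00 with RA, 10.60, 10.84, 10.54 and 10.83 with 10 µM antagonist, 10.87, 10.89, 10.75 and 10.61 with 1 µM antagonist, and 10.77, 10.87, 11.06 and 10.79 with DMSO. The groups overlapped, with a difference of -0.16 ± 0.13 for smad5 (adjusted p = 0.704). The inhibitory Smad gene smad7 read 7.67, 7.59, 7.54 and 7.91 with RA, 7.94, 8.06, 7.91 and 7.92 with 10 µM antagonist, 8.41, 7.92, 8.24 and 7.65 with 1 µM antagonist, and 7.93, 8.03, 8.12 and 7.80 with DMSO. The RA array at 7.91 overlapped DMSO, and the difference was -0.29 ± 0.15 (adjusted p = 0.438). An unadjusted p under 0.05 was found for 1 of the 7 Smad genes, smad3b (-0.24, adjusted p = 0.367), where the background was 13.2%. The genes bmp2k, fstl1b and tgfbi share a name stem with the pathway but encode a kinase, a follistatin-like protein and a matrix protein, and their differences were -0.06 to 0.20.

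**Figure D3:**
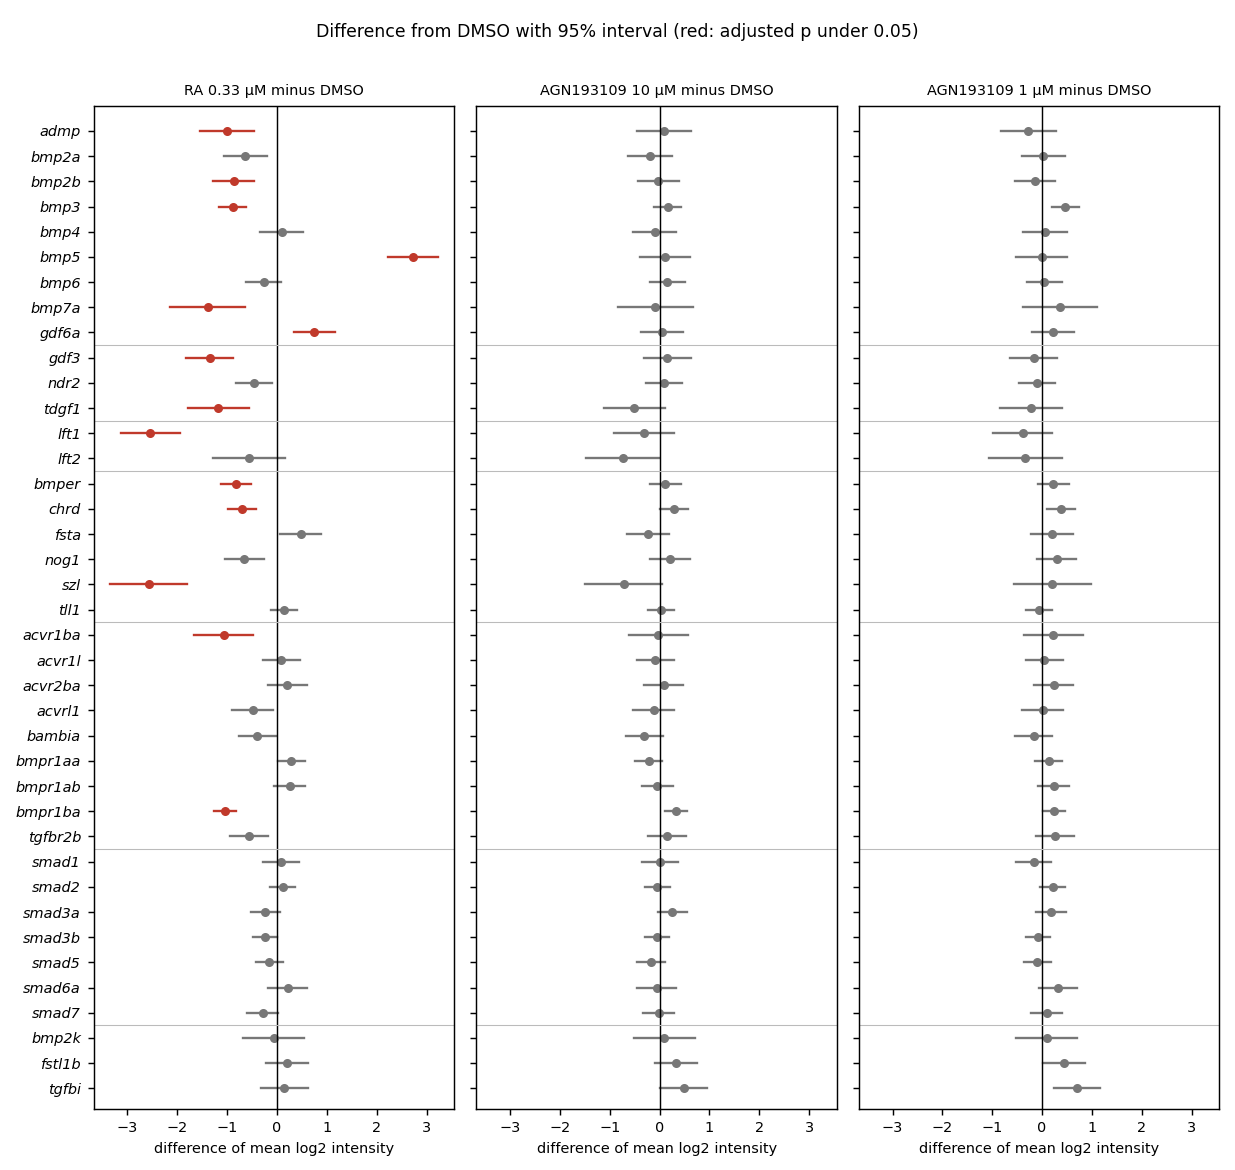
Difference of mean log2 intensity from DMSO with its 95% interval for the 39 tested members, for RA (left), 10 µM antagonist (middle) and 1 µM antagonist (right); red marks an adjusted p under 0.05. The 14 red members are all in the RA panel, 12 of them left of zero, and the Smad genes cluster near zero in all 3 panels.

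The median size of the difference from DMSO was smaller with the antagonist than with RA. It was 0.12 with 10 µM antagonist, against 0.11 over all tested probe sets. With 1 µM antagonist it was 0.21, against 0.13 over all tested probe sets. With 10 µM antagonist no member was called (limma, 0 of 39, where 0.397% of all tested probe sets were), and 4 had an unadjusted p under 0.05 (bmpr1ba, chrd, lft2 and tgfbi; background 5.15%). With 1 µM antagonist none was called either (0 of 39, where 0.144% of all probe sets were), and 5 had an unadjusted p under 0.05 (bmp3, bmpr1ba, chrd, fstl1b and tgfbi; background 6.28%). The 95% interval stayed within a 2-fold change in each direction for 36 of 39 members at either dose. The exceptions were lft2, szl and tdgf1 at 10 µM and bmp7a, lft2 and tgfbi at 1 µM. When arrays were weighted by their quality, bmpr1ba (adjusted p = 0.00957) and tgfbi (adjusted p = 0.0487) were called higher with 10 µM antagonist, while no setting gave a call at 1 µM. At 10 µM, 4 members were separated from DMSO on all arrays, where 5.45% of all tested probe sets were: bmpr1ba, chrd and smad3a were higher (background 3.28%) and lft1 was lower (background 2.17%). At 1 µM, 4 members were separated, where 2.10% of all tested probe sets were: bmp3, chrd and tgfbi were higher (background 1.09%) and lft1 was lower (background 1.01%). Both comparisons share the DMSO arrays. For chrd the differences were 0.29 ± 0.13 at 10 µM and 0.38 ± 0.13 at 1 µM, with adjusted p of 0.918 and 0.745. For lft1 they were -0.32 ± 0.28 at 10 µM and -0.39 ± 0.28 at 1 µM. For bmpr1ba they were 0.33 ± 0.11 at 10 µM and 0.23 ± 0.11 at 1 µM, with adjusted p of 0.527 and 0.745.

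The antagonist doses were also set against each other directly. None of the 39 members was called (limma, where 0.00844% of all tested probe sets were), and 5 had an unadjusted p under 0.05 (bmp3, bmpr1aa, fsta, smad2 and szl; background 8.92%). The interval of the difference stayed within 2-fold in each direction for 36 members, the exceptions being bmp7a, lft2 and szl. The widest difference was that of szl, which was lower with 10 µM by 0.92 ± 0.37 on the log2 scale (adjusted p = 0.554). Separate groups were seen only for smad2, at 8.66, 8.66, 8.62 and 8.76 with 10 µM against 9.05, 8.81, 8.82 and 9.08 with 1 µM, where 4.96% of all tested probe sets were separated and 2.14% were lower with 10 µM.

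RA was compared with 10 µM antagonist as well, a contrast of activated with blocked signalling that shares the RA arrays with the comparison above. Its differences leave out the DMSO arrays, which still enter the common estimate of the spread. This contrast called 18 of 39 members (46.2%), 4 higher and 14 lower with RA, where the background was 8.85% (4.79% higher and 4.06% lower). Without bmp5 and other probe sets above the filter level in 1 group alone, it called 17 of 38 members (44.7%) and 8.69% of all probe sets. RA and antagonist arrays were separated for 17 members, where 13.8% of all tested probe sets were. RA was the higher group for 3 of them (background 7.12%) and the lower group for 14 (background 6.71%), and 22 members had an unadjusted p under 0.05 (background 17.8%). The 17, the 3 and the 22 again include bmp5, whose separation was fixed by the filter. The differences were -2.23 ± 0.28 for lft1, -1.86 ± 0.37 for szl, -1.50 ± 0.22 for gdf3, -1.38 ± 0.11 for bmpr1ba (adjusted p = 4.73e-08), -1.06 ± 0.13 for bmp3 and -0.998 ± 0.133 for chrd (adjusted p = 4.50e-05). For bmp5 the bound was again at least 3.71-fold higher with RA. The ligand genes bmp2b (-0.85), bmp7a (-1.31), admp (-1.09) and gdf6a (0.69) were called too, as were bmper (-0.94) and acvr1ba (-1.04). The call of szl ended without RA replicates 1 and 3, where its difference was -1.23 (adjusted p = 0.0786), against -2.48 without replicates 2 and 4. The call of admp ended without replicates 1 and 3 as well (-0.97, adjusted p = 0.116), and that of bmp2b ended without replicates 2 and 4 (-0.72, adjusted p = 0.0782).

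Called in this contrast and not against DMSO were nog1, bmpr1aa, fsta, smad3a and tgfbr2b. Conversely, tdgf1 was called against DMSO and not in this contrast (-0.67 ± 0.29, adjusted p = 0.226). Whether any of these genes differed between the contrasts was not tested. The difference was -0.86 ± 0.19 for nog1 (adjusted p = 0.00525), and -0.60 and not called without RA replicates 2 and 4 (adjusted p = 0.0929). The transducer gene smad3a read 4.43, 4.31, 4.15 and 4.16 with RA, against 4.76, 4.83, 4.81 and 4.61 with 10 µM antagonist. Its values were close to the filter level, and the difference was -0.49 ± 0.14 (adjusted p = 0.0329). The type I Bmp receptor gene bmpr1aa read 10.75, 10.45, 10.58 and 10.40 with RA, against 10.10, 10.17, 9.96 and 9.97 with 10 µM antagonist. The arrays did not overlap, and bmpr1aa rose by 0.50 ± 0.13 (adjusted p = 0.0185), though its dimmer probe sets gave 0.35 and 0.19, neither called. For fsta the rise was 0.70 ± 0.20 (adjusted p = 0.0313), and its dimmer probe set gave 0.63 (adjusted p = 0.276). For tgfbr2b the arrays read 6.69, 6.40, 6.97 and 7.00 with RA, against 7.56, 7.17, 7.58 and 7.59 with 10 µM antagonist. The groups did not overlap, and the difference was -0.71 ± 0.18 (adjusted p = 0.0162). Of the 18 calls, 11 held without any 1 array, among them that of bmp5, which was fixed by the filter. The calls of acvr1ba, bmp7a, bmpr1aa, fsta, gdf6a, smad3a and tgfbr2b each ended for at least 3 of the 8 arrays left out, with adjusted p up to 0.139 for gdf6a. Those of acvr1ba, bmp7a and gdf6a also ended with only the RA and 10 µM antagonist arrays fitted. With either pair of RA arrays left out, 11 members were called. Calls of fsta, gdf6a, smad3a and tgfbr2b ended without either pair, that of bmpr1aa without replicates 1 and 3, and those of acvr1ba and bmp7a without replicates 2 and 4, where acvr1l was gained (0.55, adjusted p = 0.0316).

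Genes that are known to act downstream of these signals, and that the name rule does not cover, moved with RA in both directions. Of 24 genes tied to Bmp signalling in the early embryo, 23 were tested, 2 rose (background 3.18%) and 7 fell (background 2.57%) between RA and DMSO, with a median of -0.31 where the median of all tested probe sets was 0.01. The genes that rose were id2a (0.89 ± 0.17, adjusted p = 0.00282) and id2b (1.59 ± 0.17, adjusted p = 5.95e-06), which encode helix-loop-helix inhibitors. The lowest difference was that of foxi1, a forkhead gene of the otic and epibranchial placode region, with a mean of 4.00 in RA against 6.98 in DMSO (-2.97 ± 0.22, adjusted p = 5.67e-08). Of the 6 tested dlx and msx genes, homeobox genes active at the neural plate border, 5 fell. They were dlx3b (-1.22 ± 0.17), msx3 (-1.19 ± 0.22), msx2b (-1.14 ± 0.29), dlx5a (-1.05 ± 0.18) and msx1b (-0.71 ± 0.14), while msx1a differed by 0.24 and was not called (adjusted p = 0.572). The T-box gene tbx2b fell too (-0.65 ± 0.18). The ventral repressor genes ved (-0.97, adjusted p = 0.0980), vox (-0.54, adjusted p = 0.193) and vent (0.06) were not called, nor were the GATA factor gene gata2a (0.35, adjusted p = 0.372), id1 (-0.31, adjusted p = 0.533), id3 and the epidermal gene tp63 (-0.32). With RA replicates 1 and 3 left out, 5 genes of this list were called in place of 9.

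Of 16 genes downstream of Nodal, 12 were tested, 3 fell (background 2.57%) and none rose (background 3.18%) between RA and DMSO, with a median of -0.42. The dorsal organizer gene gsc (goosecoid) averaged 5.27 in RA and 8.34 in DMSO (-3.07 ± 0.32, adjusted p = 3.50e-06). The chemokine receptor gene cxcr4a, which is active in endoderm, fell by 1.70 ± 0.22, and the notochord gene noto by 1.40 ± 0.21. The genes foxa2 (-0.45, adjusted p = 0.0575), shha (-0.44, adjusted p = 0.139) and foxa3 (-0.39, adjusted p = 0.186), which mark midline tissue and endoderm, were not called. Nor were the endoderm genes sox32 (-1.08 ± 0.46, adjusted p = 0.300) and sox17 (-0.28) and the mesoderm gene tbxta (-0.15, adjusted p = 0.638). With arrays weighted by quality, 5 genes of this list were called. A list of 30 further components (Twisted gastrulation, Activin subunits, Smurf ligases and co-receptors) held 10 tested genes, of which none was called (limma; 2 at an unadjusted p under 0.05, inhbaa and inhbb, where the background was 13.2%) and 1 was called when all probe sets of a gene were averaged. At both antagonist doses no gene of the 3 lists was called. At 10 µM the medians of the Bmp, Nodal and further list were 0.04, -0.27 and -0.01. The median of all tested probe sets was 0.01. At 1 µM the list medians were 0.07, -0.08 and 0.12, against 0.005 over all tested probe sets. At an unadjusted p under 0.05 there were 0, 1 and 0 genes of the Bmp, Nodal and further list at 10 µM (background 5.15%), and 2, 0 and 2 at 1 µM (background 6.28%). Against 10 µM antagonist, RA gave 2 higher calls (id2a and id2b) and 6 lower calls (foxi1, dlx3b, dlx5a, msx1b, msx3 and tbx2b) on the Bmp list, where 4.79% of all probe sets were higher and 4.06% lower, and msx2b was not among them (adjusted p = 0.0622). On the Nodal list it gave 1 higher (gata6, 0.73) and 4 lower calls (gsc -2.54, noto -1.48, cxcr4a -1.39 and foxa2 -0.53), which became 3 with either pair of RA arrays left out. Among the further components it gave 1 lower call (inhbaa, -0.81, adjusted p = 0.0314), which ended without RA replicate 2 or 4 or antagonist replicate 1 or 3, where the count was 0.

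**Figure D4:**
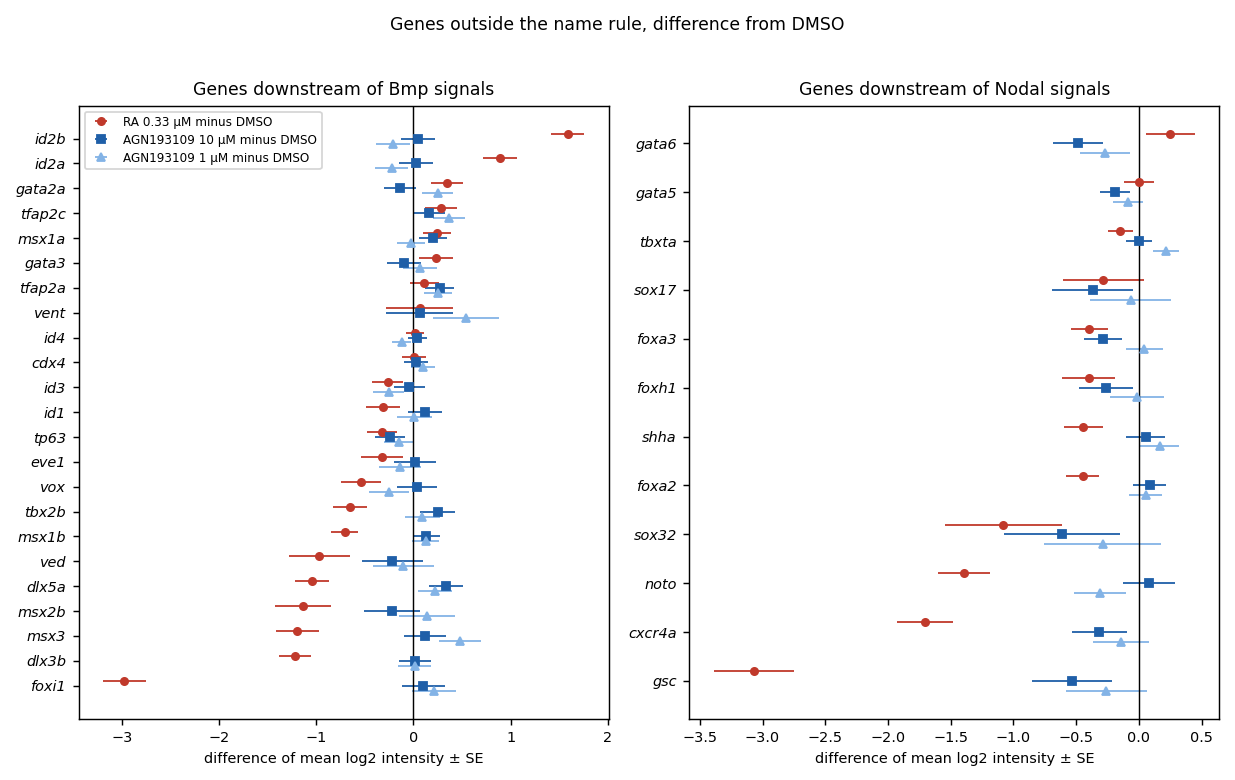
Difference of mean log2 intensity from DMSO ± SE for genes downstream of Bmp (left) and of Nodal (right) signals that the name rule does not cover, for RA (red circles), 10 µM antagonist (dark blue squares) and 1 µM antagonist (light blue triangles). The RA points of foxi1 and gsc lie near -3, id2b and id2a lie to the right, and the antagonist points stay within 1 unit of zero.

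Markers of the tissues a whole embryo holds moved with RA beside these genes, and their part in the results was not tested. Some markers repeat genes of the lists above (gsc, noto, tbxta, shha, eve1, tp63 and all 6 endoderm markers). Some, such as foxa2, stand in more than 1 marker group. The sums and calls are thus not separate from those lists or from each other. The marker calls are between RA and DMSO, where the background was 3.18% higher and 2.57% lower. The summed intensity of 4 prechordal plate markers was 606 to 941 on RA arrays, 1794 to 2389 with 10 µM antagonist, 2009 to 2369 with 1 µM antagonist and 1722 to 2582 with DMSO, and 3 of the 4 fell. For 8 markers of the tailbud and presomitic mesoderm the sum was 2772 to 3208 on RA arrays, 7338 to 7990 and 7093 to 7765 with 10 and 1 µM antagonist, and 5486 to 7339 with DMSO, and 4 fell and 1 rose. For 6 neural markers it was 8401 to 8878 on RA arrays and 11159 to 12902 with DMSO, and 3 fell. For 5 notochord markers it was 2503 to 2914 on RA arrays and 2709 to 3382 with DMSO, with 1 higher and 1 lower call. For 6 endoderm markers it was 2072 to 2360 on RA arrays and 3075 to 3329 with DMSO, and 1 fell. The endoderm sum was 2239 to 3072 with 10 µM antagonist and 2539 to 3790 with 1 µM antagonist. The highest 10 µM sum (3072) lay only just below the lowest DMSO sum (3075), and no endoderm marker was called at 10 µM. For 6 somite and muscle markers it was 560 to 836 on RA arrays and 940 to 1052 with DMSO, and 1 of 5 tested fell. By contrast, none of 9 epidermal markers was called (limma; 2 at an unadjusted p under 0.05, background 13.2%), with sums of 67216 to 85831 on RA arrays and 68531 to 73939 with DMSO. For 7 yolk syncytial layer markers the sum was 11323 to 12974 on RA arrays and 11092 to 15367 with DMSO, with 2 higher and 1 lower call. The muscle marker myl1 and the yolk layer marker apoea did not exceed a log2 intensity of 4 in any group.

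Within groups, the members varied about as much as the array as a whole, with a median pooled SD of 0.27 on the log2 scale against 0.24 over all tested probe sets. The most variable members were szl (0.59), bmp7a (0.57) and lft2 (0.55), and the least variable was bmpr1ba (0.11). The RA arrays of lft1 (SD 0.81), szl (0.76), bmp7a (0.91), acvr1ba (0.66) and bmp5 (0.73) spread widely, mostly along the split between replicates 1 and 3 and replicates 2 and 4. In replicates 1 and 3, lft1, szl, gdf3, bmp3, bmpr1ba and admp were lower than in replicates 2 and 4, and so was bmp5. In the same replicates chrd, nog1, bmp7a, bmper and acvr1ba were higher. Thus 10 of the 26 members that split were lower in replicates 1 and 3, and 16 were higher. The 26 are 66.7% of the tested members, where 61.3% of all tested probe sets split in the same way.

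The 9 members that were not tested had little signal at this stage. For gdf6b, a ligand gene related to gdf6a, 3 arrays exceeded the filter level, all with RA: it read 5.89, 4.03, 4.64 and 3.95 with RA, 3.29, 3.60, 3.22 and 3.83 with 10 µM antagonist, 3.07, 3.24, 3.34 and 3.46 with 1 µM antagonist, and 3.25, 3.30, 3.30 and 3.66 with DMSO. RA arrays lay above all others, with RA replicate 1 the highest, and the RA mean was 4.63 with that array and 4.21 without it. No DMSO array exceeded the filter level. Against that level the RA mean of gdf6b was 1.54-fold higher, but replicate 1 raised that mean and RA replicate 4 (3.95) lay below the level. The ligand gene bmp8a exceeded the level on 1 array, at 4.20. The other 7 (bmp15, gdf7, ndr1, nog2, nog3, tgfb1a and fstl5) exceeded it on none, with a highest value of 3.59, so no change in them was detectable on these arrays.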

How the data were processed

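Whole-embryo RNA was hybridised to 1-colour Affymetrix arrays. The authors deposited linear intensities, 1 for each probe set of each array. GCRMA, which corrects background from probe sequence, normalizes and summarises probes, made them per the submitters' processing notes. No source used here says whether they were scaled afterwards. Log2 of the deposited intensity was taken for 15617 probe sets. The 115 control probe sets were left out, and 11843 probe sets above log2 4 on at least 4 of 16 arrays were tested. All 16 arrays were fitted to 4 group means with limma 3.58.1 in R 4.3.3 (lmFit, eBayes; 12 residual and 4.45 prior degrees of freedom). Tests were two-sided, with Benjamini-Hochberg adjustment within each of 5 comparisons and a threshold of 0.05. The script was tested on simulated data.

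Groups and replicate numbers came from the sample titles. Titles spell the antagonist AGN193019 and the series design AGN193109. Doses follow the titles and design in µM, whereas the protocol gives mM. Description fields about nuclear cycles, which 11 hpf embryos are past, were not used. Genes were named through the platform annotation, by which 10802 probe sets had 1 symbol, 135 several and 4680 none, and a near-identical paralogue can bind the same probes. Where no array of the dimmer group exceeded log2 4, a fold is a bound against that level. Every member could be named. In full stand the called members and bmp2b, bmp4, bmp7a, chrd, nog1, szl, admp, ndr2, lft1, lft2, gdf3, bambia, fsta, smad5, smad7, tdgf1 and gdf6a, though of the members called only between RA and 10 µM antagonist the values are given for the groups compared. The gene ndr1 was also chosen for this, but it was not tested and only its highest value is given. From the lists, the genes called between RA and DMSO and up to 4 others with the smallest adjusted p were named, and against 10 µM antagonist the genes called; id3, tp63, vent, msx1a, sox17, tbxta and, against 10 µM antagonist, msx2b were added after their values were seen. The members and lists were chosen with earlier results of these data known. The number of arrays limits the precision. Alternatives covered normalization, filters, the arrays fitted, the variance model, array weights, a replicate block, the probe set rule and leaving out arrays.

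Replicate numbers were checked for pairing by correlating deviations from the group means across probe sets. Between RA and DMSO they correlated at 0.134, 0.269, 0.336 and 0.153 for numbers 1 to 4, and over all 24 same-number pairs of arrays at -0.455 to 0.764, with 16 over 0.1. Values with the replicate block are printed where they change a member's call.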

Additional observations from a re-analysis of the deposited data

Results flagged for a closer look

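For the 39 tested members, 153 groups of 4 arrays had an array above the filter level. Of these, 10 (6.54%) held an array whose gap to its nearest neighbour, as a share of the group's range, exceeded Dixon's 95% critical value. Chance flags about 1 group in 20. In the RA group, replicate 1 of lft2 read 6.62 against 7.16 to 7.27 on the others (ratio 0.839). With 10 µM antagonist, replicate 2 stood apart for ndr2, at 5.02 against 4.56 to 4.62 (0.873), and for tgfbr2b, at 7.17 against 7.56 to 7.59 (0.943). With 1 µM antagonist, replicate 1 stood apart for bmper, at 9.95 against 9.74 to 9.77 (0.888), and for smad3b, at 4.88 against 5.16 to 5.19 (0.901). Replicate 4 of the same group did so for bmp7a, at 8.46 against 7.71 to 7.83 (0.846), and for ndr2, at 4.01 against 4.63 to 4.70 (0.900). Among the DMSO arrays, fsta replicate 1 read 10.06 against 9.85 to 9.86 (0.956), gdf6a replicate 2 read 6.73 against 6.58 to 6.61 (0.831) and lft1 replicate 3 read 9.39 against 9.26 to 9.28 (0.856). These last gaps are small on the log2 scale, since the DMSO arrays of those genes lay close together.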

How the results depend on the processing

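No call of a member changed direction under any alternative. Between RA and DMSO, 13 to 18 members were called under the alternatives that keep all arrays of both groups, 10 to 12 with 1 array left out, and 8 of the 14 calls held everywhere. Between RA and 10 µM antagonist the count was 13 to 15 with 1 array left out, 11 without RA replicates 1 and 3 and 11 without replicates 2 and 4, and 7 of 18 calls held everywhere. The 8 and the 7 that held everywhere both include bmp5, whose call was fixed by the filter. Array weights moved the count for 10 µM antagonist against DMSO to 2, and for the Nodal list between RA and DMSO to 5. The Bmp list between RA and DMSO fell to 5 without RA replicates 1 and 3, and the Nodal list between RA and 10 µM antagonist to 3 without either pair. The list of further components moved to 1 between RA and DMSO with all probe sets of a gene averaged. Between RA and 10 µM antagonist it had 0 calls at a filter of log2 5 and without RA replicates 2 and 4, and 0 to 1 with 1 array left out. Leaving out arrays leaves fewer samples; otherwise the cause was not tested. With the replicate number as a block, 17 members were called between RA and DMSO, 19 between RA and 10 µM antagonist and 0 in the other comparisons, and 14 between RA and DMSO with only those groups fitted. Of all 24 pairs of same-number arrays, 11 correlated best with their own number. The planned search for promoter motifs was not run. Levels near log2 4 (ndr2, bmp6, smad3a, acvrl1) limit what can be read from those genes.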
